A study of Drosophila melanogaster with 32 samples.

Results

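This account covers how M1BP binding changed when M1BP itself was depleted, as measured by 4 ChIP-seq peak lists from Kc167 cells, a line derived from Drosophila melanogaster embryos. ChIP-seq recovers DNA fragments with an antibody and reports the genomic intervals, called peaks, where a protein is enriched. In the M1BP knockdown group, cells received 20 µg of double-stranded RNA (dsRNA) against M1BP and were kept for 5 days at 25 °C. The mock group was grown at the same temperature, and the labels do not say what its transfection held. Each group had 2 libraries with the M1BP antibody. Peaks that shared 1 bp or more in these lists were joined, which gave 3321 sites. The whole series has 24 peak lists with 113005 peaks. The series also holds lists for the insulator proteins Su(Hw), Mod(mdg4) and CP190 under both of these treatments. It further holds M1BP and CP190 lists from a second mock set and from cells given 12 µg of dsRNA against Cp190, and these libraries took no part in defining the sites below. The labels do not say whether replicates were separate cultures, so a p-value over libraries reflects only how far these samples vary, and that variation may be technical. These files do not report how much M1BP protein was left, and the antibody's own peaks are the only readout of the knockdown. No sequence letters are given, because no genome sequence was used here.

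M1BP, Motif 1 binding protein, is a zinc-finger factor that recognises a core promoter element known as Motif 1. In flies this element marks many constitutively active genes, including genes of the ribosome and of metabolism, that lack a TATA box, and M1BP is associated with RNA polymerase II that pauses just downstream of the start site. CP190 is an architectural zinc-finger protein with a BTB domain that is brought to insulators and to many promoters by other DNA-binding factors. The design asks whether insulator proteins depend on M1BP and whether M1BP depends on CP190, and depletion of M1BP is the treatment on which the first of these questions rests.

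The knockdown lists were shorter than the mock lists and their peaks were narrower. The lists held 1776 and 1699 peaks in the M1BP knockdown libraries, against 2980 and 2781 in the mock libraries. The means were 1737.5 ± 54.4 and 2880.5 ± 141 peaks (SD, n = 2 libraries each), and both knockdown libraries lay below both mock libraries. An exact two-sided permutation test over libraries gave p = 0.333, the smallest value that 2 against 2 libraries allow, and the same holds for the other library values given with p = 0.333. The median fold enrichment of a peak, the ratio of ChIP to control signal from the authors' peak caller, was 5.16 and 6.61 in the knockdown lists, against 13.2 and 11.9 in the mock lists. This ratio is not scaled between libraries, so it describes each list and serves to rank peaks within it. The median -log10 q of a peak was 39.8 and 32.8 in the knockdown lists, against 67.5 in both mock lists. The read depth of a library was not stated in the material used here, and its part in these differences was not tested.

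Peak shape was compared over the 1468 sites that had a peak in all 4 lists. At these sites the median width was 636 and 632 bp in the knockdown libraries, against 935.5 and 932 bp in the mock libraries. The difference of the group means was -299.75 bp, with no overlap between groups (exact permutation p = 0.333). Summits, the positions of highest signal, lay close together in every pair of libraries. Their median distance was 21 bp between the knockdown libraries, 19 to 21 bp between a knockdown and a mock library, and 17 bp between the mock libraries. Peaks after knockdown were thus narrower around the same summits, at distances no larger than those between the knockdown replicates.

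**Figure D1:**
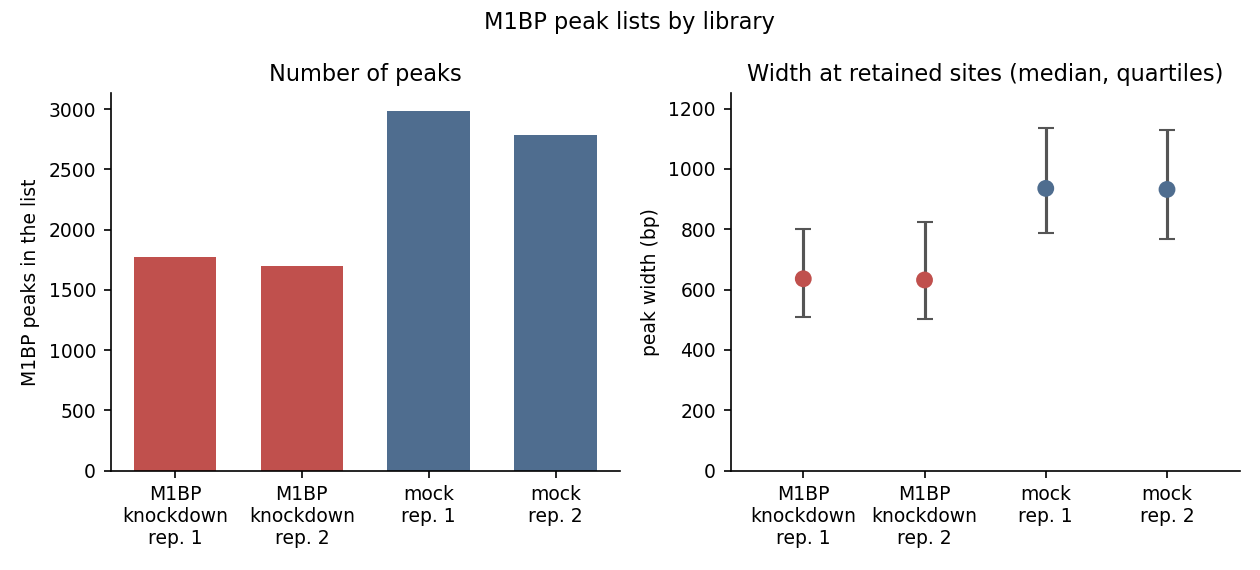
M1BP peak lists by library, with the M1BP knockdown libraries on the left in red and the mock libraries on the right in blue. The left panel shows the number of peaks per list, and the right panel the median peak width in bp at the 1468 sites present in all 4 lists, with bars from the lower to the upper quartile. Both knockdown libraries lie below both mock libraries in each panel, and the width medians are 636 and 632 bp against 935.5 and 932 bp.

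Each site was classed by the lists that held it. A site with a peak in both mock lists is called lost when neither knockdown list had it, partial when 1 of them did, and retained when both did. Of the 2526 sites present in both mock lists, 894 were lost (35.4%, 95% Wilson interval 33.6 to 37.3), 164 were partial (6.49%, 5.60 to 7.52) and 1468 were retained (58.1%, 56.2 to 60.0). Of the partial sites, 99 kept the peak in knockdown replicate 1 and 65 in replicate 2. Sites with no mock peak numbered 144, and 28 of them (19.4%) were present in both knockdown lists and are called gained. The other 116 were split into 70 seen in knockdown replicate 1 alone and 46 in replicate 2 alone. Loss here means that no peak passed the authors' threshold. When every list was trimmed to its 1699 strongest peaks, as many as the shortest list held, 257 of 1628 sites were lost (15.8%). The trimmed lists gave 185 gained sites, as a mock peak under the cut then counted as absent. Both counts thus depend on the length of the lists. The gained count was 74 without knockdown replicate 1, 98 without knockdown replicate 2 and 56 without mock replicate 1.

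Mock cells of the other experiment in the series held M1BP at nearly all lost sites, which those libraries had no part in choosing. Of the lost sites, 844 of 894 had a peak in both lists of the second mock set (94.4%, Wilson interval 92.7 to 95.7), and so did 1376 of the 1468 retained sites (93.7%, 92.4 to 94.9). Of the gained sites, which were chosen for having no mock peak, 0 of 28 did, which allows a share of up to 12.1%. The classes differed in how strong M1BP was in that second mock set. On a percentile scale of fold enrichment in which 100 is the strongest peak of a list, lost sites had a median rank of 48.5 (quartiles 39.9 and 59.2). Partial sites had a median of 66.4 and retained sites of 78.5 (quartiles 67.2 and 88.3). Lost and retained sites were thus both recurrent M1BP sites of mock cells, and lost ones were the weaker kind.

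Strength in these independent libraries ordered the loss. The 2350 sites with a peak in both lists of the second mock set were divided into quintiles of 470 sites by their mean rank there. From the weakest to the strongest quintile, the lost share was 87.9%, 53.2%, 21.5%, 12.3% and 4.68%. The retained share ran the other way, at 8.09%, 39.1%, 71.1%, 82.1% and 92.3%. In the strongest quintile 22 sites were nevertheless lost, HemK1 and ewg among them.

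CP190 sites in mock cells lay at M1BP sites that were lost less often, and the difference shrank among sites of like strength. M1BP was lost at 609 of the 1976 sites that had a CP190 peak in both mock CP190 lists (30.8%, Wilson interval 28.8 to 32.9), against 285 of the other 550 (51.8%, 47.6 to 56.0). Within quintiles of second-mock strength the lost shares with and without CP190 were 86.9% and 89.4% in the weakest, 55.0% and 48.9% in the next, and 20.9% and 25.0% in the middle one. In the fourth they were 11.9% and 21.7%, with 23 sites lacking CP190, and in the strongest 4.71% and 0%, with 3 such sites. The mean difference over quintiles was -1.13 percentage points, with a 95% interval from -5.83 to 3.57. This interval is too narrow even for counting error. It takes no error from the 3 strongest sites without CP190, of which 0 were lost, although their Wilson interval reaches 56.1%. The mean difference was -2.59 points without the strongest quintile, an alternative chosen after the values were seen. Without mock replicate 1 it was -6.99 points with a standard error of 4.90. Su(Hw) and Mod(mdg4) sites were few among M1BP sites, and M1BP was lost at 37 of 103 sites that held Su(Hw) in both mock lists and at 35 of 105 that held Mod(mdg4), shares near the 35.4% of all sites.

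**Figure D2:**
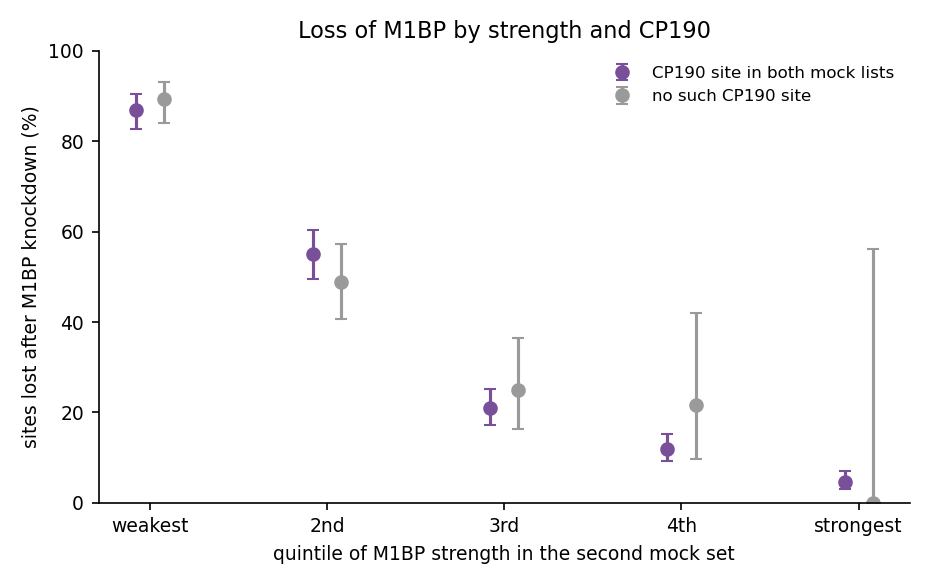
Share of M1BP sites lost after M1BP knockdown, in percent, by quintile of M1BP strength in the second mock set, for sites with a CP190 peak in both mock CP190 lists (purple) and sites without (grey). Bars are 95% Wilson intervals, which cover counting error only. Both series descend from near 90% in the weakest quintile to under 5% in the strongest, where the grey point rests on 3 sites.

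Loss also differed by genomic position. Each site was placed by its summit as lying at a gene end (no more than 250 bp from where an annotated gene starts or stops), inside a gene, or between genes. The gene table gave no strand, so starts and ends of genes cannot be told apart. M1BP was lost at 613 of 2023 gene-end sites (30.3%, Wilson interval 28.3 to 32.3), at 191 of 370 sites inside genes (51.6%, 46.5 to 56.7) and at 83 of 123 sites between genes (67.5%, 58.8 to 75.1). Sites that served 1 gene end and sites shared by the ends of 2 genes were lost at like shares of 29.6% and 31.1%. Among the chromosome arms the lost share was lowest on 3L at 29.7%, and it was 36.6% on 2L, 36.9% on 2R, 34.2% on 3R and 38.8% on X. On the small chromosome 4, 7 of 11 sites were lost. In the strength quintiles the lost shares at gene ends and elsewhere were 90.3% and 84.7% in the weakest, 50.4% and 70.1% in the next, and 20.6% and 31.6% in the middle one. They were 10.8% and 41.7% in the fourth, where only 24 sites lay elsewhere, and 4.69% and 4.55% in the strongest.

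The make-up of the lists as a whole turned with their length. Gene ends held 80.0% and 81.5% of the peaks in the knockdown lists, against 74.1% and 78.3% in the mock lists, a difference of 4.57 percentage points (exact permutation p = 0.333). A CP190 site of mock cells overlapped 77.1% and 78.9% of the knockdown peaks, against 72.6% and 76.3% of the mock peaks, a difference of 3.53 points (exact permutation p = 0.333). Among the 1699 strongest peaks of each list both directions reversed. Gene ends then held 81.7% of knockdown peaks against 91.6% of mock peaks, a difference of -9.95 points, and CP190 overlapped 78.9% against 89.4%, a difference of -10.6 points.

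The strongest lost gene-end sites were chosen by their mock fold. Among the 12 so chosen, ranks in the second mock set ran from 67.7 at CG5466 to 99.5 at HemK1. At HemK1, which encodes a methyltransferase of the HemK family (chr2L:6467193-6468153 in dm6, the build used for all positions here, summit 13 bp from a gene end), M1BP had folds of 37.9 and 30.1 in the mock libraries and no peak in either knockdown library. The second mock set gave 37.3 and 37.6 there, and the cells with Cp190 knockdown 31.2 and 28.5. At the ends of cdm, an importin gene, and its neighbour CG7208 (chr3R:18183040-18184188) the mock folds were 29.4 and 33.1. At CG5026 (chr3L:8967965-8969171) they were 30.4 and 31.2, and at Dolk, the dolichol kinase gene, 29.5 and 30.2. All 4 of these sites held CP190 in both mock libraries, and none of them had a CP190 peak after M1BP knockdown. At HemK1 the mock CP190 folds were 9.44 and 5.78, and at Dolk 6.65 and 8.31.

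Of the 12 strongest lost gene-end sites by mean mock fold, 11 held CP190 in both mock libraries. Of these 11, 7 kept CP190 in both M1BP knockdown libraries and 4 had it in neither. Among all 894 lost sites, 609 held CP190 in both mock libraries (68.1%). Of these 609, 536 kept it in both (88.0%) and 52 had it in neither (8.54%). At Rab23, a small GTPase gene (chr3R:5684793-5686188), M1BP folds of 30.8 and 26.1 in mock cells were lost. CP190 there had folds of 8.61 and 8.68 after M1BP knockdown, against 8.83 and 11.7 in mock cells. The window between polo, the gene of a kinase of cell division, and alphaSnap, a SNARE-recycling factor, lost M1BP at mock folds of 28.4 and 20.2. CP190 remained there at 7.78 and 8.29 after knockdown, against 8.42 and 8.45 in mock cells. The site at ewg, a gene for a transcription factor of the NRF1 family, and its neighbour CG3777 had M1BP folds of 25.1 and 21.4 in mock cells. CP190 there had 5.90 and 4.40 after knockdown, against 10.04 and 9.80 in mock cells. At mbf1, a transcriptional coactivator gene, M1BP was lost at mock folds of 25.2 and 19.4 while CP190 had 11.6 and 10.6 after knockdown, against 10.3 and 9.33 in mock cells. At sli, which encodes the axon guidance ligand Slit, M1BP was lost at 22.7 and 21.0 and CP190 had 14.9 and 14.2 after knockdown, against 15.3 and 19.0 in mock cells. The remaining sites of this kind were at tth and at cmb with CG14109. CG5466 was the exception, with M1BP folds of 23.4 and 20.4 in mock cells and no CP190 peak in either mock or either knockdown library. All 12 sites had M1BP peaks in both libraries of the second mock set and in both libraries with Cp190 knockdown. Among all lost sites these shares were 94.4% and 84.5%.

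The strongest partial sites were near-losses, with a low peak in 1 knockdown library. The window of babo, a receptor of the activin pathway, and Tom7, a subunit of the mitochondrial import pore, had a fold of 3.14 in knockdown replicate 1 and no peak in replicate 2, against 36.3 and 31.9 in the mock libraries. Pld, the phospholipase D gene, was nearest to a site 12189 bp away, with 4.59 in knockdown replicate 1 and none in replicate 2, against 36.5 and 27.7 in the mock libraries. Rab21 and Coa7 shared a site with no peak in knockdown replicate 1 and 3.47 in replicate 2, against 32.4 and 26.6 in the mock libraries. CG32428, nst and the window of csul, a protein arginine methyltransferase gene, with fidipidine complete the 6 highest. At nst and csul no CP190 peak was called after M1BP knockdown, although both mock CP190 libraries had one. This was so at 13 of all 104 partial sites with CP190 in both mock libraries (12.5%).

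Among retained sites the knockdown reordered the peaks in a way that both knockdown libraries shared. Each list was ranked by fold over the same 1468 sites, so that lists of equal length were compared, and the ranks describe relative order, not level. Spearman's rho across these sites was 0.947 between the knockdown libraries and 0.876 between the mock libraries, but 0.412 to 0.497 between a knockdown and a mock library. These are correlations across sites, which are not independent replicates. Normal scores of the ranks were fitted with limma, and an adjusted p under 0.05 over all retained sites was the threshold. By this test 328 sites moved up the order after knockdown (22.3%) and 309 moved down (21.0%). Unadjusted p-values under 0.05 were given to 431 sites moving up and 362 moving down. Both knockdown ranks lay above both mock ranks at 612 sites (41.7%) and below both at 495 (33.7%). Counts fell to 106 up and 155 down without knockdown replicate 1, and to 153 up and 185 down without knockdown replicate 2. A fit of log2 fold centred on the median of each list gave 589 up and 364 down, a larger excess of upward calls than in the ranks.

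The sites that moved differed in width and in strength in the second mock set, but these traits do not stand apart from the call. A large fall in rank needs a high start in mock cells, and a large rise a low one. The median mock rank was 74.9 for sites that moved down, 48.1 for those with no call and 27.8 for those that moved up. Sites that moved down had median widths of 519 bp in both knockdown libraries, against 1037 and 1042 bp in the mock libraries. Sites that moved up had 748.5 and 760 bp in the knockdown libraries, against 848.5 and 843 bp in the mock libraries. Sites with no call lay between, at 643 and 640 bp against 940 and 930 bp. In the second mock set, which the fit did not use, the median rank was 85.2 for sites that moved down, 77.7 for those with no call and 72.1 for those that moved up. These ranks are over the whole second mock lists and cover the sites found in both of them, 309 of 309 that moved down, 782 of 831 with no call and 285 of 328 that moved up. By position, 46 of the 143 retained sites inside genes moved up (32.2%) and 24 moved down (16.8%), against 21.1% up and 21.7% down of the 1297 at gene ends.

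**Figure D3:**
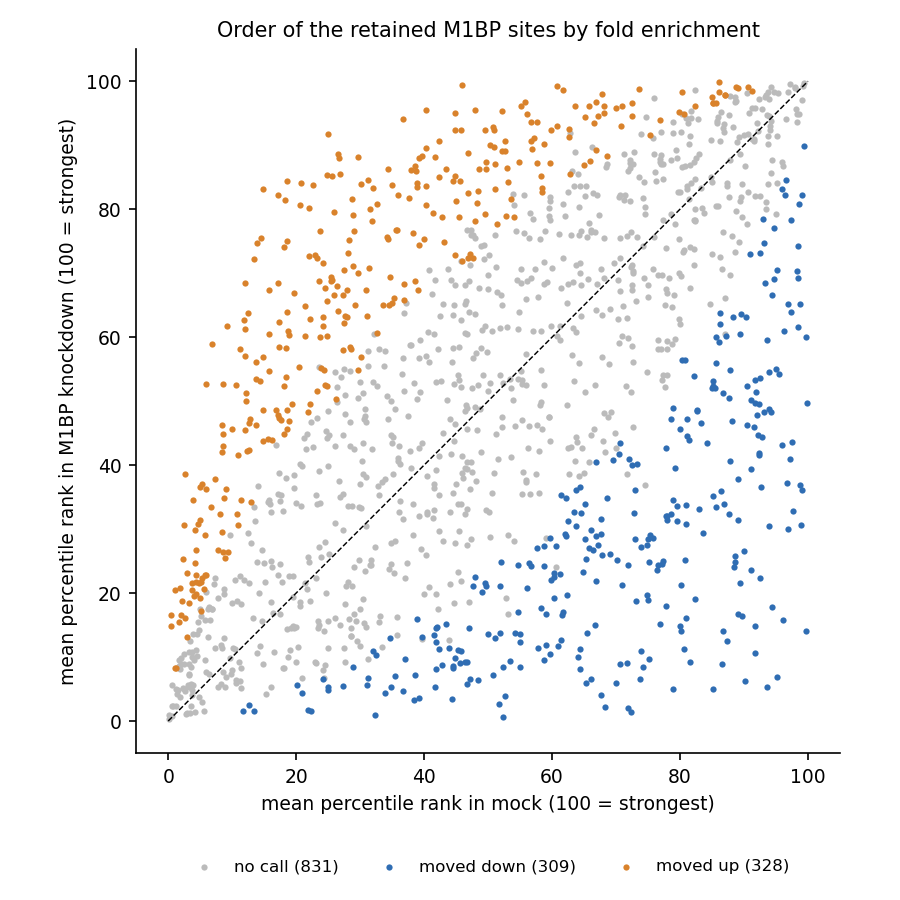
Mean percentile rank of fold enrichment in the knockdown libraries (vertical axis) against that in the mock libraries (horizontal axis) for the 1468 retained M1BP sites, where 100 is the strongest. Orange points are the 328 sites that moved up by limma's test, blue points the 309 that moved down and grey points the 831 with no call, and the dashed line marks equal rank. The blue points reach from the top of the mock order to the bottom of the knockdown order, so some of the strongest mock sites were near the lowest retained peaks after knockdown.

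The largest falls, at tmod, Mvk and Su(var)2-HP2, were at sites high in the mock order, a start that a large fall in rank requires. Within tmod, which encodes tropomodulin, a protein that caps the pointed end of actin filaments (chr3R:30562271-30563968, 2943 bp from the nearest gene end), M1BP had folds of 2.99 and 4.11 in the knockdown libraries, against 48.3 and 40.8 in the mock libraries. Its percentile ranks were 11.3 and 16.8 after knockdown, against 99.8 and 99.6 in mock cells. The difference in normal score was -3.83 with a standard error of 0.23 (limma, Benjamini-Hochberg adjusted p = 0.000521). Mvk, the mevalonate kinase gene, shares a window with CG33672, where folds were 2.92 and 2.51 in the knockdown libraries, against 36.5 and 27.6 in the mock libraries. At Su(var)2-HP2, whose product binds the heterochromatin protein HP1, they were 2.45 and 3.72 in the knockdown libraries, against 33.2 and 33.5 in the mock libraries. The knockdown values lay far under the mock values in every library at these genes, and all were still called as peaks.

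The other falls among the 10 largest were at genes of varied function. Vps4, the ATPase that disassembles ESCRT-III (chrX:17907082-17908166), had folds of 2.39 and 3.69 in the knockdown libraries, against 36.8 and 24.3 in the mock libraries. The window of Arfip, which encodes arfaptin, and CG17721 had 3.61 and 6.50 in the knockdown libraries, against 36.9 and 42.7 in the mock libraries. Ube4B, a ubiquitin chain assembly factor gene, had 3.16 and 4.15 in the knockdown libraries, against 38.8 and 29.5 in the mock libraries. The site shared by slmb, an F-box gene of the SCF ubiquitin ligase, and CG5793 had 1.79 and 3.13 in the knockdown libraries, against 24.1 and 21.2 in the mock libraries. At Max, the gene for the dimerisation partner of Myc (chr3L:19263647-19264882), they were 3.41 and 3.11 in the knockdown libraries, against 32.9 and 28.2 in the mock libraries. CR43158 and lncRNA:CR46257 complete the 10 largest falls. Mock percentile ranks were lowest at slmb with CG5793 (66.4 and 70.1) and at lncRNA:CR46257 (71.5 and 73.1). Of these 10 sites, all held CP190 in both mock libraries, and 4 had no CP190 peak in either knockdown library (tmod, CR43158, Arfip with CG17721, and Max). Among all 309 sites that moved down, 290 held CP190 in both mock libraries (93.9%), and 36 of these 290 had it in neither knockdown library (12.4%). Among all retained sites these shares were 86.0% and 7.68%.

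The largest rises were from the lower and middle parts of the mock order as well as from its upper part. Over all retained sites the median fold was 6.22 and 7.84 in the knockdown libraries, against 20.7 and 17.4 in the mock libraries. Near prage (chrX:1772528-1773247) the folds were 19.2 and 28.2 in the knockdown libraries, against 18.7 and 17.5 in the mock libraries. Its percentile rank was 99.5 in both knockdown libraries, against 40.8 and 51.0 in the mock libraries, a difference in normal score of 2.67 with a standard error of 0.23 (limma, Benjamini-Hochberg adjusted p = 0.00137). Amph, the gene for the membrane-bending protein amphiphysin, had 18.1 and 30.4 in the knockdown libraries, against 24.8 and 17.7 in the mock libraries. At Poc1, a centriole protein gene (chr3L:13389628-13390363), folds were 13.9 and 12.4 in the knockdown libraries, against 13.1 and 9.50 in the mock libraries. At msl-3, which encodes a subunit of the dosage compensation complex, they were 13.8 and 17.8 in the knockdown libraries, against 17.2 and 11.3 in the mock libraries. Folds are not scaled between lists, so these values do not show whether the level of M1BP changed at these sites.

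The rest of the 10 were CG3500, CG9706, CG11906, the window of lncRNA:CR45474 with spdi and CR46417, that of CG10602 with mRpL13 and tup, and that of puc with CG7900. puc, a phosphatase gene of the JNK pathway, had folds of 18.6 and 17.9 in the knockdown libraries, against 24.0 and 12.5 in the mock libraries. Its limma adjusted p was 0.011, and it missed the threshold without knockdown replicate 1 (limma adjusted p = 0.0679) and without mock replicate 2 (limma adjusted p = 0.0535). All 10 sites had CP190 in both mock libraries and in both knockdown libraries. Among all 328 sites that moved up, 263 had CP190 in both mock libraries (80.2%), and 249 of these 263 had it in both knockdown libraries (94.7%). The 6 sites with the highest mean knockdown fold were CG3500, omd, egl, Amph, Usp47 and prage, of which 3 are among the largest rises. omd, the gene of an Integrator subunit, kept its place at the top of every list, with folds of 19.3 and 31.8 in the knockdown libraries, against 39.2 and 42.1 in the mock libraries, and ranks of at least 99.0 in each of the 4 lists.

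**Figure D4:**
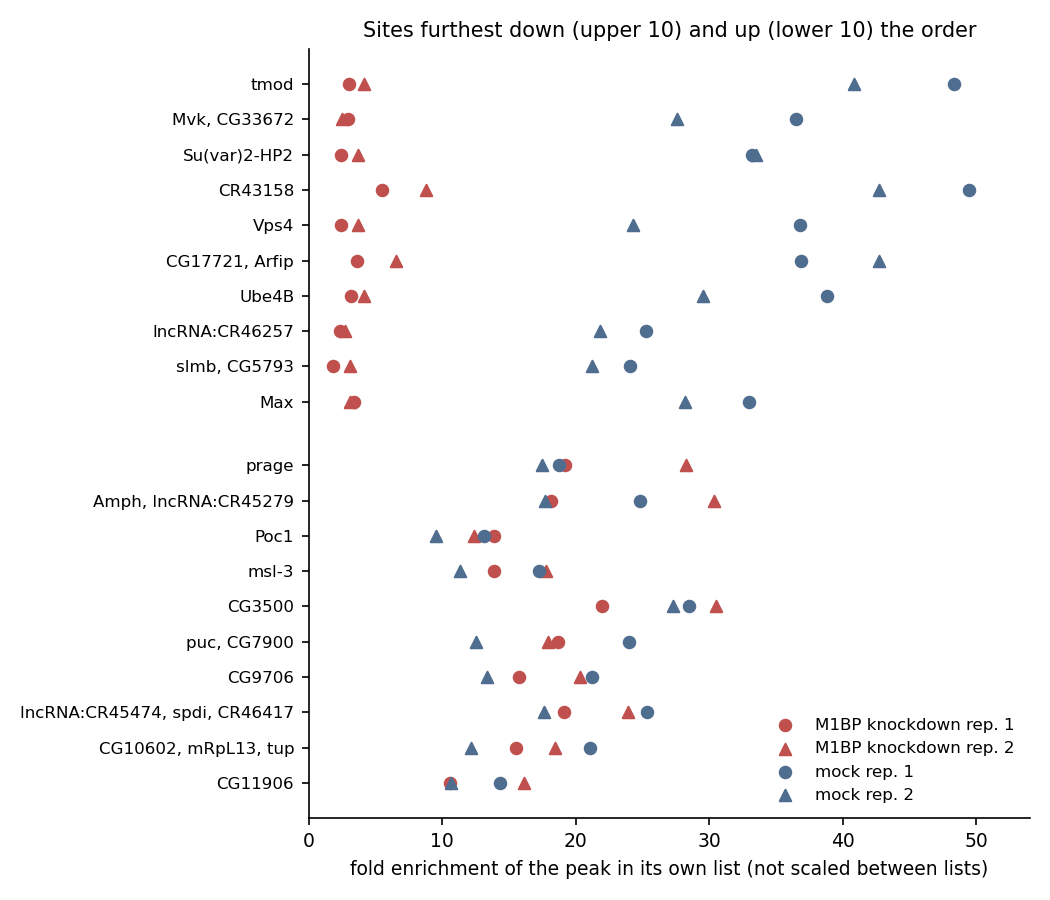
Fold enrichment of the M1BP peak in each of the 4 libraries (horizontal axis, not scaled between lists) for the 10 retained sites furthest down the order (upper block) and the 10 furthest up (lower block). Red symbols are the M1BP knockdown libraries and blue symbols the mock libraries, with circles for replicate 1 and triangles for replicate 2. In the upper block the knockdown folds lie between 1.79 and 8.78 and the mock folds from 21.2 upward, while in the lower block the groups overlap at most sites.

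Gene families were described by their gene-end sites, beside the 30.3% of all gene-end sites that were lost and the 21.1% and 21.7% of retained gene-end sites that moved up and down. A site shared by 2 genes counts for both, and the families were given no test of their own. Among cytoplasmic ribosomal protein genes, 39 of 50 sites were retained and 8 lost, and of the retained ones 14 moved up (35.9%) and 2 moved down (5.13%). RpL7 had folds of 17.8 and 24.1 in the knockdown libraries, against 25.6 and 26.6 in the mock libraries, and was among those that moved up. RpL37A had no call, with folds of 18.3 and 23.1 in the knockdown libraries, against 42.5 and 29.97 in the mock libraries. One site at RpS4 and the one at RpS3 moved down. Mitochondrial ribosomal protein genes had 17 sites, of which 4 were lost, 5 moved up and 3 moved down, mRpL48 and mRpS16 among the last. Aminoacyl-tRNA synthetase genes, which charge tRNAs with amino acids, lost 1 of 10 sites, that of ThrRS, and 3 of the 9 retained moved down, with beta-PheRS at 4.77 and 4.95 in the knockdown libraries, against 24.9 and 20.2 in the mock libraries.

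Genes of the transcription machinery had values on both sides of the background. Mediator, the coactivator complex that bridges activators and RNA polymerase II, had 16 sites, of which 3 were lost (MED8, Cdk8 and MED31) and 13 retained, with 3 of these moving up and 0 down. MED4 had folds of 14.8 and 17.2 in the knockdown libraries, against 19.8 and 16.3 in the mock libraries. RNA polymerase subunit genes lost 7 of 20 sites. The site of Polr2A, the largest subunit of RNA polymerase II, was lost at mock folds of 17.7 and 18.5. Of the 13 retained, 6 moved up and 2 down, both directions occurring at the ends of Polr3A. Genes of TFIID and associated factors lost 1 of 5 sites, and of the 4 retained Taf4 and Taf5 moved up while Taf1 moved down. Taf1 had folds of 4.78 and 10.2 in the knockdown libraries, against 32.7 and 29.0 in the mock libraries, and Taf4 had 12.5 and 17.2 in the knockdown libraries, against 18.4 and 16.1 in the mock libraries. Integrator, which cleaves nascent transcripts, lost 2 of 7 sites, and 2 of the 5 retained moved down.

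Families of membrane traffic and degradation had these counts. Of the 8 sites of Rab GTPase genes, regulators of vesicle traffic, 4 were lost (Rab23, Rab2, RabX1 and Rab27), 1 was partial (Rab21), Rab14 and Rab11 moved down and Rab6 moved up. Rab11 had folds of 3.09 and 4.10 in the knockdown libraries, against 27.8 and 23.2 in the mock libraries. Of the 6 sites of vacuolar ATPase genes, the proton pump of acidic organelles, 4 were lost, and VhaM9.7-b moved down, with 3.89 and 4.91 in the knockdown libraries, against 33.0 and 25.0 in the mock libraries. Of the 6 sites of autophagy genes 0 were lost, 4 moved down (Atg2, Atg1, Atg3 and Atg4a) and 0 moved up. Atg1, the kinase that starts autophagy, had 5.50 and 7.08 in the knockdown libraries, against 28.8 and 23.2 in the mock libraries. Proteasome genes lost 5 of 19 sites, and of 14 retained 4 moved down and 0 up. With so few members, a change of 1 or 2 sites would shift most of these shares by a large step, though not always as far as the background.

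Among the remaining families, nucleoporin genes lost 5 of 13 sites with 1 moving up and 2 down, and the site of Nup107 is shared with Vha16-5 and was lost for both. Respiratory complex I genes lost 2 of 14 sites, with 4 moving up and 2 down. COP9 signalosome genes lost 1 of 4 and chaperonin genes 2 of 5, with 1 site of each moving up. Of 2 sites at tRNA genes 0 were lost and 1 moved up. Genes of architectural and promoter factors lost 5 of 11 sites, those of gfzf, mod(mdg4), pzg, Ibf1 and Cp190. Of the 6 retained, su(Hw), ZIPIC, Clamp and Chro moved up and Trf2, a TBP-related factor that serves TATA-less promoters, moved down. su(Hw) had folds of 10.3 and 14.4 in the knockdown libraries, against 17.8 and 16.7 in the mock libraries. The lost Cp190 site (chr3R:15274958-15275719) was weak in mock cells, at 3.40 and 3.25, and M1BP had folds of 6.25 and 7.01 there in cells with Cp190 knockdown, against 5.04 and 4.80 in the second mock set. The M1BP gene itself had no M1BP site.

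CP190 stayed at most sites from which M1BP was lost. Of the 609 lost sites with CP190 in both mock libraries, 536 had CP190 in both M1BP knockdown libraries (88.0%) and 52 had it in neither (8.54%, Wilson interval 6.57 to 11.03). Of the 1263 retained sites with CP190, 97 had it in neither (7.68%, 6.34 to 9.28). Over all CP190 sites of mock cells the share without a peak in either knockdown list was 305 of 7168 (4.26%). Among retained sites the share without CP190 differed by the M1BP call. It was 36 of 290 at sites where M1BP moved down (12.4%, 9.10 to 16.7), 56 of 710 where it had no call (7.89%, 6.12 to 10.1) and 5 of 263 where it moved up (1.901%, 0.815 to 4.37). The interval for sites that moved up does not overlap that for sites that moved down, and these intervals cover counting error over sites, not the spread between libraries. The strength of CP190 in mock cells was not matched between these calls, and its part in the difference was not tested. The Cp190 knockdown gives the comparison in the other direction. M1BP had no peak in either Cp190 knockdown library at 49 of the 844 lost sites that were present in the second mock set (5.81%, 4.42 to 7.59). It had none at 5 of 1376 retained sites (0.363%, 0.155 to 0.848). Over all sites present in both mock sets, the share was 57 of 2350 (2.43%, 1.88 to 3.13). Over all 3173 M1BP sites of the second mock set, with or without a peak in the first, it was 188 (5.92%). Lost sites were also the weaker ones in the second mock set, with a median rank of 48.5 against 78.5 for retained sites. M1BP strength was not matched in this comparison, and its part in the difference was not tested.

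**Figure D5:**
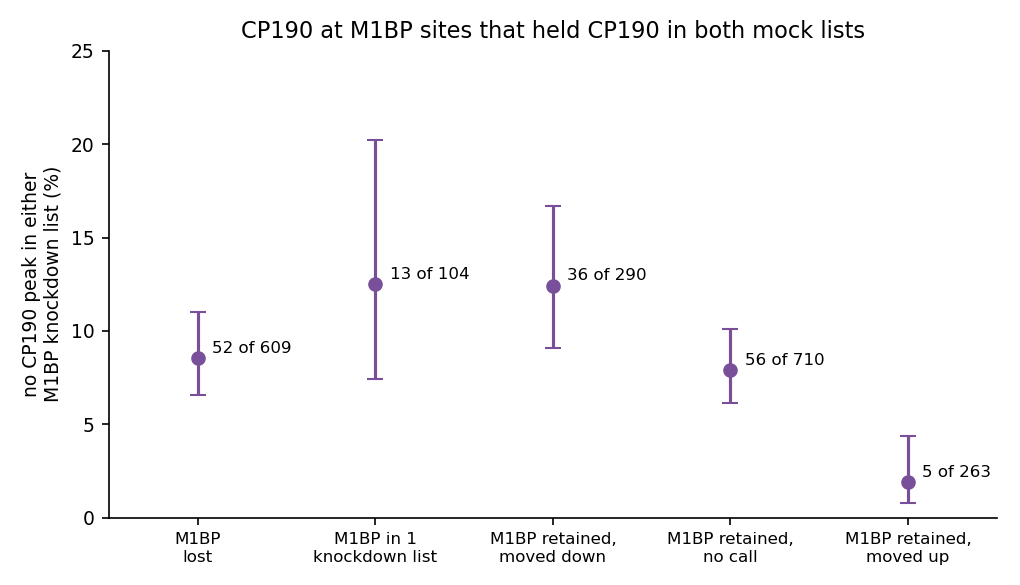
Share of M1BP sites with CP190 in both mock libraries that had no CP190 peak in either M1BP knockdown library, in percent, by what M1BP did at the site. Points are shares with their counts, and bars are 95% Wilson intervals over sites. The share is 12.4% where M1BP was retained and moved down the order, and 1.901% where it moved up. CP190 strength in mock cells was not matched between the groups.

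A small group of retained sites was absent from the other experiment. In all, 81 of the 1468 retained sites had no peak in either library of the second mock set, and 69 of these had none in the Cp190 knockdown M1BP libraries as well. They lay mostly inside genes (49 sites), with 26 at gene ends and 6 between genes, at a median of 1031 bp from the nearest gene end, against 30 bp for the 1376 retained sites found in both second mock libraries. CP190 was present in both mock libraries at 15 of the 81 (18.5%), against 90.5% of the 1376, and 30 of the 81 were on X (37.0%, against 16.6%). Their folds were low in all 4 lists, with medians of 3.20 and 4.04 in the knockdown libraries, against 4.33 and 4.06 in the mock libraries. At the 1376 recurrent sites the medians were 6.51 and 8.19 in the knockdown libraries, against 21.4 and 17.9 in the mock libraries. Their median percentile rank among the retained sites was 15.5 in the knockdown libraries, against 3.92 in the mock libraries. Of the 81, 38 moved up the order and 0 moved down, a split that their place at the foot of the mock order left little room to differ. The highest mean knockdown fold was inside CG9663 (chr2L:3301781-3302643), with 7.97 and 8.21 in the knockdown libraries, against 5.72 and 5.66 in the mock libraries. Inside norpA, the phospholipase C gene of photoreceptors, the folds were 6.53 and 5.96 in the knockdown libraries, against 8.47 and 6.30 in the mock libraries. These sites are named after their values were seen.

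The 28 gained sites were weak and mostly inside genes. Their folds ran from 2.03 to 4.01 in knockdown replicate 1 and from 2.28 to 4.46 in replicate 2. Inside genes lay 18 of them, at gene ends 7, between genes 2 and off the chromosome arms 1. CP190 was present in both mock libraries at 4 of the 28. The gene-end site with the highest mean was that of CHMP2B, an ESCRT-III subunit, and Tcs5 (chr3L:5139180-5139741), with 3.82 and 4.41. It was followed by the window of fws, a subunit of the Golgi tethering complex COG, and Lamtor3, with 3.12 and 4.46. The others were at lncRNA:CR44478, moody, Gapdh2, mgl and lncRNA:CR46102, the last at 2.03 and 2.29. Inside mam, which encodes the Notch coactivator Mastermind, the folds were 3.12 and 4.27, and inside mamo 4.01 and 3.33. The lowest folds at retained sites in the knockdown lists were 1.54 and 2.12. The gene-end sites at moody, Gapdh2, mgl and lncRNA:CR46102 were no longer called gained when each peak needed a -log10 q of at least 10.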

How the data were processed

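Peak lists of the 4 M1BP libraries were used, and 20 further lists only for look-up. MACS2 2.2.5, Picard 2.20.2, Bowtie2 2.3.5 and SAMtools 1.9 are named in the submitters' processing notes, without options. The authors called peaks separately in each library, as the deposited peak names show. The deposited fold is a ratio of ChIP to control signal. The deposited -log10 p and -log10 q are the caller's, and the lowest -log10 q in the 4 lists was 1.37. The deposited score and summit offset came from the same caller, and the score was not used in tests. Columns that belong to no sample numbered 0.

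The labels do not name a genome build. The names of sequences and the highest position on chrM (19524) fit dm6, and a RefSeq gene table of that assembly (17684 genes on the arms, without strand) gave gene ends and names. Coordinates are those of merged sites, counted from 1. A named site takes the genes with an end within 250 bp of its summit, or else the nearest or surrounding gene.

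Python 3.11.15, pandas 2.3.3, scipy 1.17.1, R 4.3.3 and limma 3.58.1 were used, and the limma step was tested on simulated data. Of 200 sites changed among 1468, it found 0 at a 1.5-fold change, 106 at a 2-fold change and 171 at a 4-fold change. Unchanged sites made up 5.36% of its calls at 2-fold and 7.07% at 4-fold. A retained site with no call is thus not shown to be unchanged. Limma (lmFit, eBayes) was run on normal scores of ranks with Benjamini-Hochberg adjustment over 1468 sites. Library values were compared by exact two-sided permutation, 11 in all. With 2 against 2 no adjusted p can pass. Shares carry 95% Wilson intervals, which cover counting error only. The members, the 17 gene lists and the tests were chosen with earlier results of these data known. Named sites are the 12 strongest lost gene-end sites, the 6 strongest partial sites, the 10 largest falls and 10 largest rises in order, the 6 highest in knockdown, the gained gene-end sites, the strongest members of each list and the M1BP and Cp190 genes, and not each one is reported. Other list members, the sites inside mam and mamo and those absent from the second mock set were added after their values were seen. Input libraries (8) were not analysed here.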

Additional observations from a re-analysis of the deposited data

How the results depend on the processing

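The 20 sites with the largest falls and rises kept their direction under every alternative that could be fitted, though puc missed the threshold as given above. Only 14 of the 20 could be fitted with the stricter q, and these included all 10 rises. The sites that could not be fitted were all falls, Mvk and Max among them, as not all 4 of their peaks passed that limit. Most of the 10 largest falls were thus not tested with the stricter q. All 20 sites were chosen as extremes of the same 4 libraries, so a kept direction is weak support. The 19 named lost and gained gene-end sites were classed again under each alternative for the classes. With the stricter q, 4 changed class, the gained sites given above, and 1 changed class with lists of equal length. Other named sites were not followed one by one. Requiring a -log10 q of at least 10 left 744 sites lost, 1235 retained and 19 gained. An overlap of at least 50% of each peak gave 1063 lost, 1311 retained and 167 gained sites. Summits within 100 bp gave 846 lost, 1332 retained and 70 gained. Under these rules a mock and a knockdown peak that overlap but miss the limit can count as 1 lost and 1 gained site. With lists of 1699 peaks each, 257 of 1628 sites were lost and 185 counted as gained, with mock peaks under the cut taken as absent. The differences in CP190 share (-10.6 points) and gene-end share (-9.95 points) then reversed. Leaving out 1 library at a time gave 959 to 1268 lost, 1478 to 1567 retained and 37 to 98 gained sites. The share present in the second mock set was then 82.5 to 93.3% of lost and 92.0 to 93.2% of retained sites. It was 99.5% and 98.0% with the stricter q, and 100% for both classes with equal lists. The CP190 difference within strength quintiles ran from -6.99 to -0.537 points when a library was left out. Ranking by -log10 q moved 510 sites up, and centred log2 fold 589. Leaving out a library gave 106 to 287 sites up and 155 to 285 down, where a lone library is assumed to vary like the other group.

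Deviations of same-numbered libraries correlated at 0.148 over the retained sites. With 2 pairs this does not show that the numbers pair the libraries. With the replicate block limma moved 430 sites up and 370 down, including all 328 and 309 found without it. The peak number difference stayed at -1143 with the replicate block (exact permutation p = 0.5, the smallest 2 pairs allow). The search for Motif 1 was not run. Peaks give presence past a threshold, 2 libraries per group limit precision, and ranks do not give levels.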

Other observations

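Sites seen in a single list were looked up in the second mock set. Those in a knockdown list alone were chosen for having no mock peak, and those in a mock list alone for having one. A lower share of the former in another mock set follows largely from that choice. Of 357 sites present in mock replicate 1 alone, 187 had a peak in both lists of the second mock set (52.4%, Wilson interval 47.2 to 57.5), and of 195 in mock replicate 2 alone, 94 did (48.2%, 41.3 to 55.2). Of 70 sites in knockdown replicate 1 alone and 46 in replicate 2 alone, 0 did, which allows shares of up to 5.20% and 7.71%. The mock-only sites were weak there, with median ranks of 30.03 and 28.1. Mod(mdg4), an insulator protein, was present in both M1BP knockdown Mod(mdg4) libraries at 14 of the 46 sites seen in M1BP knockdown replicate 2 alone (30.4%), against 8 of the 70 seen in knockdown replicate 1 alone (11.4%) and 194 of all 3321 sites (5.84%). In mock cells both Mod(mdg4) libraries already held 7 of the 46 (15.2%), 0 of the 70 and 148 of all 3321 sites (4.46%). Su(Hw) was likewise in both mock libraries at 7 of the 46 (15.2%), against 135 of all 3321 sites (4.07%). After M1BP knockdown it was in both libraries at 9 of the 46 (19.6%), against 184 of all sites (5.54%).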
